A study of Rattus norvegicus with 24 samples.

Results

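Rat INS1 cells were given the lysine deacetylase (KDAC) inhibitor Givinostat before proinflammatory cytokines, and the comparison described here asks how their microRNAs (miRs) differed at 24 h from those of cells given the cytokines alone. Its members are the 3 arrays titled 24h_Giv_Cyt and the 3 arrays titled 24h_Cyt, which are 6 of the 24 arrays of the series. INS1 is a rat insulinoma line that makes insulin, so it models the β-cell as 1 tumour-derived line and holds none of the other islet cells. In 24h_Cyt the cells had IL-1β at 150 pg/ml with IFN-γ at 0.1 ng/ml in their medium for 24 h. Cells of 24h_Giv_Cyt met the same cytokines after 1 h in Givinostat (ITF2357) at 125 nM. The groups set beside them, also of 3 arrays each, were 24h_Ctrl with neither agent, 24h_Giv_Ctrl with Givinostat alone, and the pair 6h_Cyt and 6h_Giv_Cyt at 6 h. The submitters call the 3 arrays of a group technical replicates, so the p-values measure the spread between these arrays, which may not hold that between cultures.

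KDACs remove acetyl groups from histones and from other proteins, among them transcription factors such as NF-κB, and Givinostat blocks a broad range of them. A miR is a short RNA that lowers the translation and stability of mRNAs, which it finds mainly through its seed, the stretch from base 2 to base 8. In β-cells IL-1β acts through NF-κB, and miR-146a is a classical NF-κB target that represses the IL-1 receptor adaptors TRAF6 and IRAK1, which makes it a feedback brake on the same pathway.

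The sequences below are the mature miRs that the results turn on, 5′ to 3′, with the seed in capitals. They come from RefSeq (build GRCr8), in which 685 of the 758 miRs of the array were found by name. The first set holds miR-146a-5p, the miR that passed the test, and miR-146b-5p, which has the same seed.
miR-146a-5p: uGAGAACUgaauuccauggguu
miR-146b-5p: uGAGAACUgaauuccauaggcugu
The second set holds miRs whose 24h_Giv_Cyt arrays all lay below the 24h_Cyt arrays, ordered so that miRs of 1 seed stand together: the miR-29 family, the miR-101 pair, and then miRs whose seed no other printed miR has.
miR-29a-3p: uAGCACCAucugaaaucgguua
miR-29b-3p: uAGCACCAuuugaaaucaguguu
miR-29c-3p: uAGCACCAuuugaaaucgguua
miR-101a-3p: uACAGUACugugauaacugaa
miR-101b-3p: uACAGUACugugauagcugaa
miR-384-5p: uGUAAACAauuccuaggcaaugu
miR-340-5p: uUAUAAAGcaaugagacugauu
miR-96-5p: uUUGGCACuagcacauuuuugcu
miR-192-5p: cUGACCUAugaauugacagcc
miR-3473: uCUAGGGCuggagagauggcua
The third set holds miRs among those with the largest positive differences, which share no seed.
miR-7a-2-3p: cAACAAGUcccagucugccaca
miR-652-5p: aCAACCCUaggagggggugccau
miR-207: cUUCUCCUggcucuccucccuuu
miR-3102: cUCUACUCccugccccagcca
miR-485-3p: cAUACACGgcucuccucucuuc

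Each array held 16 spots for each of 758 rat miRs. The level of a miR on an array is the mean of its 16 spots after quantile normalization, on the log2 scale, and log2FC is the difference between the mean levels of 24h_Giv_Cyt and 24h_Cyt. No background was subtracted, so a log2FC understates the change of a dim miR. A miR counts as detected on an array where the scanner software marked at least 8 of its 16 spots as well above background. By that rule 168 miRs were detected on all 3 arrays of 24h_Cyt and 143 on all 3 arrays of both groups, so 25 of the 168 entered through the 24h_Cyt arrays alone, while 536 miRs were detected on none of the 6. These 168 are called the detected miRs below.

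Before normalization the 24h_Cyt arrays were the brighter ones. The 75th percentile of the processed signal over miRs detected on all 24 arrays was 1003, 742 and 596 on 24h_Cyt and 571, 542 and 487 on 24h_Giv_Cyt. The 2 groups shared no slide: 24h_Cyt replicates 1 and 2 lay on slide 1 and replicate 3 on slide 2, whereas 24h_Giv_Cyt replicates 1 and 2 lay on slide 4 and replicate 3 on slide 3. By the file headers slide 1 was scanned on a different day from slides 2, 3 and 4. The other array of slide 1, 6h_Giv_Ctrl replicate 1, was also the brightest of its group, at 681.5 against 401.5 and 310.8. Leaving out slide 1, an alternative given at the end, also leaves out that scan day. Within these 6 arrays slide and treatment cannot be told apart, and a slide term can be fitted only through the other groups. The normalized arrays within these 2 groups correlated with r of 0.992 or more, and 24h_Giv_Cyt replicate 1 was the least like the others of its group.

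The β-cell label was checked against miR-375-3p, the miR best known for islet cells, which was detected on all 6 arrays. Its level was 9.78 to 9.93 on 24h_Cyt and 9.65 to 10.04 on 24h_Giv_Cyt, so the groups overlapped, and its log2FC was 0.04 with a 95% interval of -0.21 to 0.30. Markers of other cells were mostly absent. None of the 6 blood and immune cell miRs, the 2 exocrine pancreas miRs and the liver marker miR-122-5p was detected. The log2 of the summed linear levels of the blood and immune list was 8.09 to 8.12 on 24h_Cyt and 8.09 to 8.11 on 24h_Giv_Cyt. No background was subtracted, so such sums hold background. Of 6 muscle miRs only miR-206-3p was detected, and of 5 fibroblast and endothelial miRs only miR-214-3p, with log2FC of 0.13 and 0.11. The groups did not overlap for miR-214-3p. The log2 of the summed linear levels of its list was 8.02 to 8.05 on 24h_Cyt and 8.03 to 8.11 on 24h_Giv_Cyt. The part of such cells in the results was not tested. In bulk RNA, fewer cells that make a miR and less of it per cell cannot be told apart.

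With Givinostat on top of cytokines, miR-146a-5p was the only miR that rose by the test on array means, and no miR fell. That is 1 of 758 miRs, or 0.132% of those tested, by limma with Benjamini-Hochberg adjusted p below 0.05 and an absolute log2FC above 0.1375, which is a fold of 1.1. A further 37 miRs, so 38 in all (5.01%), had an unadjusted p below 0.05, 19 of them higher (2.51%) and 19 lower (2.51%) with Givinostat.

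The level of miR-146a-5p was 6.11, 6.04 and 5.99 on the 24h_Cyt arrays and 6.15, 6.28 and 6.20 on the 24h_Giv_Cyt arrays. Every 24h_Giv_Cyt array was above every 24h_Cyt array, with the closest pair 24h_Giv_Cyt replicate 1 and 24h_Cyt replicate 1. The log2FC was 0.16 (SE 0.032, 95% interval 0.093 to 0.23, n = 3 against 3), which is 1.12-fold, with a limma adjusted p of 0.0394. Its 2 probes, of 8 spots each, gave log2FC of 0.12 and 0.20. The mature miR lies at chr10:28350053-28350074 on the minus strand of GRCr8, within the span of the long non-coding RNA gene LOC134480673.

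Cytokines alone also raised miR-146a-5p. On 24h_Ctrl its level was 5.49, 5.44 and 5.44, below every array of 24h_Cyt, with a limma adjusted p of 5.09e-10 for 24h_Cyt against 24h_Ctrl, a comparison in which 31 miRs were called (4.09%), 20 of them higher (2.64%). On 24h_Giv_Ctrl it was 5.45, 5.43 and 5.50, and the log2FC of Givinostat without cytokines was 0.0037. miR-146a-5p was detected only where cells had been 24 h with cytokines, on all 6 of those arrays and on none of the other 18. The scale mattered for its size. With background subtracted by the scanner software and arrays scaled to their 75th percentile, the log2FC was 0.80 over detected miRs and 0.51 over all miRs, and without any scaling between arrays it was 0.18.

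Whether the call was kept depended on the fit, though the sign did not. Of 24 fits that each left out 1 array, log2FC ran from 0.13 to 0.19 and the limma adjusted p from 0.0177 to 0.281. The call was lost in 12 of them: without 24h_Cyt replicate 2 or 3, 24h_Giv_Cyt replicate 2 or 3, 24h_Ctrl replicate 2 or 3, 24h_Giv_Ctrl replicate 1, 6h_Ctrl replicate 1 or 3, 6h_Giv_Ctrl replicate 3, 6h_Cyt replicate 2 or 6h_Giv_Cyt replicate 2. With slide as a fixed block the log2FC was 0.13 (limma adjusted p = 0.998), and with the 168 detected miRs tested alone it was 0.16 (limma adjusted p = 0.546).

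**Figure D1:**
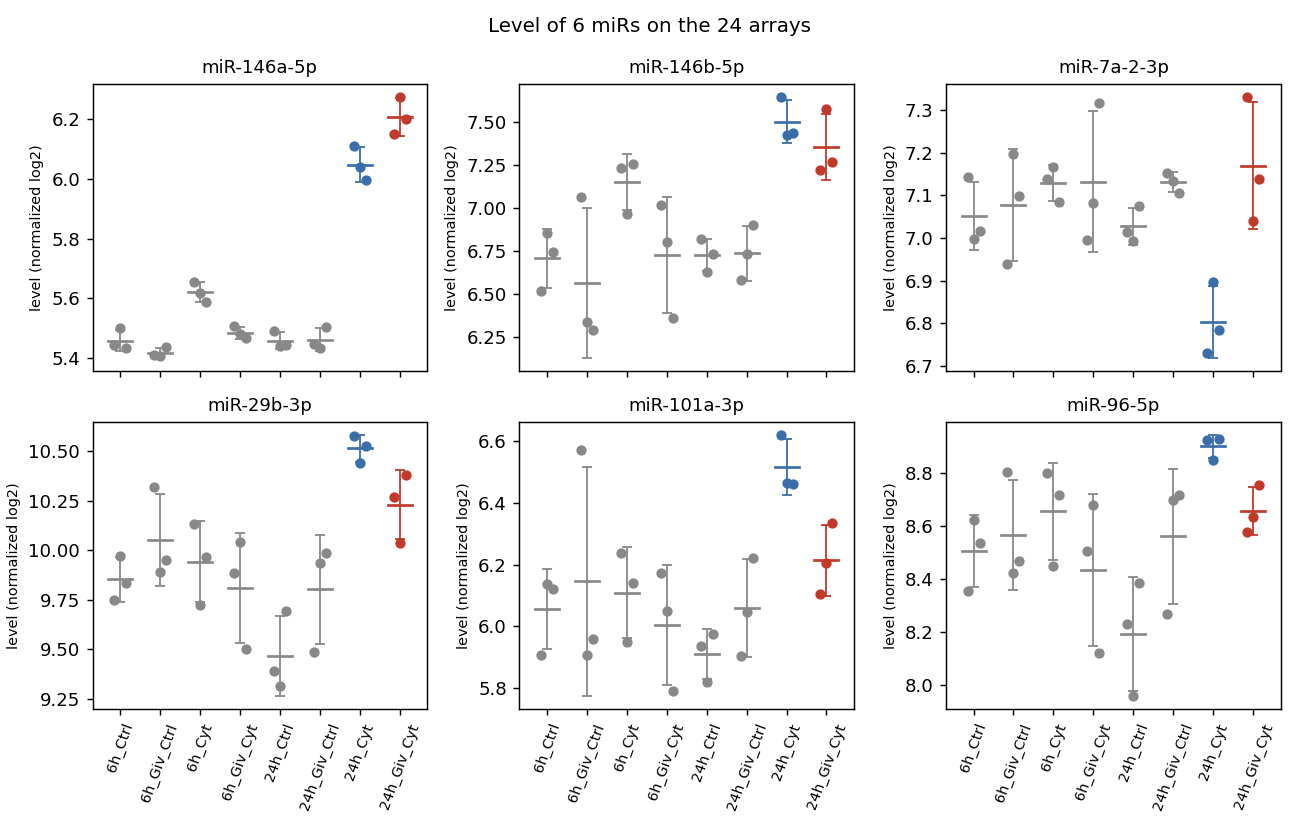
Normalized log2 level (y axis, its range set for each panel) of 6 miRs on the 24 arrays by group (x axis). Points are arrays, with replicates 1 to 3 from left to right, bars are means and whiskers are SD, and red marks 24h_Giv_Cyt and blue 24h_Cyt. miR-146a-5p stood at 5.99 to 6.11 on 24h_Cyt and 6.15 to 6.28 on 24h_Giv_Cyt, above all other groups, while miR-29b-3p, miR-101a-3p and miR-96-5p lay lower on 24h_Giv_Cyt than on 24h_Cyt.

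The paralogue with the same seed had a log2FC of the opposite sign. miR-146b-5p, which is made from another chromosome, had levels of 7.65, 7.43 and 7.44 on 24h_Cyt and 7.22, 7.58 and 7.27 on 24h_Giv_Cyt. The groups overlapped through 24h_Giv_Cyt replicate 2, and the log2FC was -0.15 (SE 0.18, 95% interval -0.53 to 0.24). A difference between the paralogues was not tested. The other NF-κB responsive miRs of the list (8 with miR-146a-5p) included 2 more detected members, miR-146b-5p and miR-21-5p, an NF-κB and AP-1 driven miR. The level of miR-21-5p was 7.69, 7.54 and 7.45 on 24h_Cyt and 7.22, 7.40 and 7.32 on 24h_Giv_Cyt, with no overlap and a log2FC of -0.25 (SE 0.15, not called). miR-155-5p, the other classical NF-κB miR, was not among the detected.

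Among detected miRs the next smallest p was that of miR-7a-2-3p, which comes from the 3′ arm of a precursor of miR-7a, a miR family abundant in β-cells. Its level was 6.73, 6.90 and 6.78 on 24h_Cyt and 7.33, 7.04 and 7.14 on 24h_Giv_Cyt. No array of 24h_Giv_Cyt reached down to those of 24h_Cyt. The log2FC was 0.37 (SE 0.080, 95% interval 0.20 to 0.54), the highest of all 758 miRs in these fits, and the limma adjusted p was 0.0626, so it did not pass. In 5 of the 24 fits that left out 1 array it passed, with limma adjusted p from 0.023 to 0.0495, as without 24h_Giv_Cyt replicate 2. On 24h_Ctrl its mean was 7.03, above the 6.80 of 24h_Cyt and below the 7.17 of 24h_Giv_Cyt. The other arm of the precursor, miR-7a-5p, which further miR-7 genes also make, had overlapping groups and a log2FC of -0.10 (SE 0.13), and its 2 probes gave 0.0019 and -0.20.

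A miR just outside the fold threshold was miR-762, named here after its values were seen. Its levels of 5.83, 5.82 and 5.79 on 24h_Cyt and 5.64, 5.69 and 5.71 on 24h_Giv_Cyt did not overlap, and the limma adjusted p was 0.0055. The log2FC of -0.14 was under the threshold, and miR-762 was detected on none of the 6 arrays, so no fold is given.

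The study's own test, which treats the 16 spots of a miR as separate measurements with 1 pooled correlation, called 24 miRs (3.17%), 14 higher (1.85%) and 10 lower (1.32%) with Givinostat. Of the 14 higher, 2 had an unadjusted p below 0.05 on array means, as had 2 of the 10 lower. The estimated correlation between spots was 0.0373. At that correlation the 16 spots of an array count almost as independent measurements, so its p-values do not measure the spread between arrays.

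With that test the study sorted miRs that it called both for cytokines and for Givinostat beside cytokines, on these same arrays, so their directions here are not independent evidence. Its group A, lower with cytokines and higher again with Givinostat, is miR-652-5p, miR-466b-2-3p and miR-7a-2-3p, with log2FC of 0.33, 0.31 and 0.37, and only miR-7a-2-3p had groups that did not overlap. The level of miR-652-5p was 7.34, 7.46 and 7.79 on 24h_Cyt and 7.83, 7.72 and 8.02 on 24h_Giv_Cyt, and the overlap came from 24h_Cyt replicate 3. Its log2FC turned to -0.28 with slide as a fixed block and was 0.012 without scaling between arrays. The level of miR-466b-2-3p was 9.66, 10.38 and 9.84 on 24h_Cyt and 10.57, 10.15 and 10.08 on 24h_Giv_Cyt, and its SE of 0.42 was larger than its log2FC.

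Group B held 8 miRs that were higher with cytokines and lower with Givinostat: miR-3584-5p, miR-101a-3p, miR-384-5p, miR-29c-3p, miR-340-5p, miR-140-5p, miR-96-5p and miR-455-5p. For all 8 the 24h_Giv_Cyt arrays lay below the 24h_Cyt arrays, as they did for 78 of all 758 miRs (10.3%) and 30 of the 168 detected (17.9%), with log2FC of -0.14 to -0.30 and a median of -0.22, against a median of 0.0028 over all 758 miRs. None passed on array means (lowest limma adjusted p 0.880). With array brightness as a covariate the median of the 6 detected members went from -0.235 to -0.087, and 1 of the 6 was positive. Of the 8, miR-140-5p and miR-455-5p were detected on 2 and 1 of the 24h_Cyt arrays and on no 24h_Giv_Cyt array. Where a 24h_Giv_Cyt level lay below the dimmest detected signal of its array, it was set to that signal. The measured 24h_Cyt means were then 1.074-fold and 1.098-fold higher. These ratios give no lower limit, as the log2FC of the 2 miRs had SE of 0.099 and 0.095.

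Apart from any call, the arrays of the 2 groups did not overlap for 126 of 758 miRs (16.6%), 48 higher (6.33%) and 78 lower (10.3%) with Givinostat. Among the 168 detected miRs there were 42 (25%), 12 higher (7.14%) and 30 lower (17.9%). Among the 143 detected on every array of both groups there were 11 higher (7.69%) and 24 lower (16.8%). The median log2FC over the detected miRs was 0.011, with 87 positive and 81 negative, as quantile normalization keeps the arrays' distributions equal. The lower side held more of the miRs whose groups were separate.

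**Figure D2:**
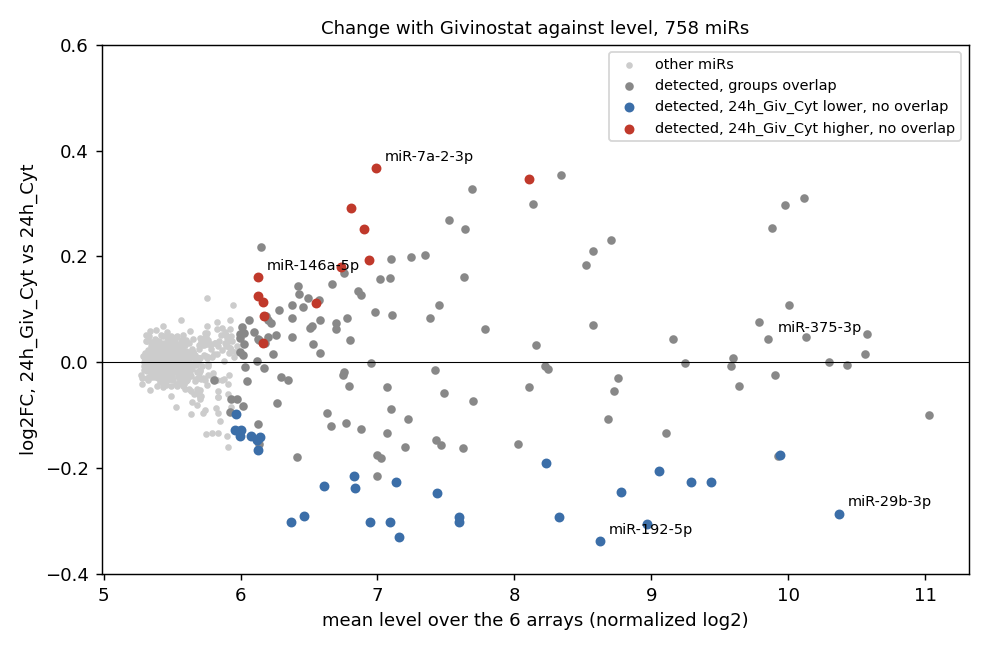
log2FC of 24h_Giv_Cyt against 24h_Cyt (y axis) by mean normalized log2 level over the 6 arrays (x axis) for 758 miRs. Pale grey points are miRs outside the 168 detected, dark grey points are detected miRs whose groups overlap, and blue and red points are the 30 lower and 12 higher detected miRs without overlap. The pale points crowd near 0, and detected miRs spread from -0.34 to 0.37.

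Among the 30 lower miRs the most negative was miR-192-5p, a miR of gut, liver and kidney epithelium that p53 can induce. Its level was 8.95, 8.76 and 8.67 on 24h_Cyt and 8.40, 8.53 and 8.44 on 24h_Giv_Cyt, and the log2FC was -0.34 (SE 0.17, not called). miR-194-5p, made from the same short stretch of chromosome 1, also had separate groups, with a log2FC of -0.19. The 2 miRs lie within 215 bases in GRCr8.

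miR-101a-3p and miR-101b-3p, repressors of the histone methyltransferase EZH2, share a seed and come from chromosomes 5 and 1. The level of miR-101a-3p was 6.62, 6.47 and 6.46 on 24h_Cyt and 6.10, 6.20 and 6.33 on 24h_Giv_Cyt. The level of miR-101b-3p was 7.07, 6.87 and 6.93 on 24h_Cyt and 6.53, 6.79 and 6.85 on 24h_Giv_Cyt. Both pairs of groups were separate, with log2FC of -0.30 (SE 0.14) and -0.24 (SE 0.17). Both stayed negative under every alternative run, but with array brightness as a covariate the pair's median went from -0.27 to -0.081. miR-101a-3p was not detected on any array of 24h_Ctrl or 24h_Giv_Ctrl, and its mean there was 5.91 and 6.06.

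The 3 members of the miR-29 family, whose best known targets are collagens and DNA methyltransferases and which in β-cells silence the monocarboxylate transporter MCT1, were all lower and without overlap. The level of miR-29b-3p was 10.57, 10.44 and 10.53 on 24h_Cyt and 10.27, 10.04 and 10.38 on 24h_Giv_Cyt. The level of miR-29c-3p was 9.17, 9.21 and 9.09 on 24h_Cyt and 8.94, 8.94 and 8.97 on 24h_Giv_Cyt. Their log2FC were -0.29 (SE 0.16) for miR-29b-3p, -0.21 (SE 0.19) for miR-29c-3p and -0.18 (SE 0.15) for miR-29a-3p, and none was called. The family is made from 2 clusters, miR-29a with miR-29b-1 on chromosome 4 and miR-29b-2 with miR-29c on chromosome 13. The 2 miR-29b genes give the same mature sequence, so the signal of miR-29b-3p cannot be assigned to either cluster. With array brightness as a covariate the family's median was -0.0024, and miR-29c-3p turned to 0.028. On 24h_Ctrl the means of miR-29b-3p and miR-29c-3p were 9.47 and 8.44, so on 24h_Giv_Cyt, at 10.23 and 8.95, both lay between 24h_Ctrl and 24h_Cyt, a comparison that shares the 24h_Cyt arrays.

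The miR-183 cluster, known from sensory cells and islets, held both signs. The level of miR-96-5p was 8.92, 8.85 and 8.93 on 24h_Cyt and 8.58, 8.63 and 8.76 on 24h_Giv_Cyt, with no overlap and a log2FC of -0.24 (SE 0.15). miR-183-5p and miR-182, from the same 3879 bases of chromosome 4, had log2FC of -0.012 and 0.084. The 3 probes of miR-182 gave 0.060, -0.0012 and 0.20. A difference within the cluster was not tested.

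The other miRs among the 10 lowest were miR-598-3p (-0.33), miR-141-3p (-0.31), miR-335 (-0.30), miR-3473 (-0.30), miR-384-5p (-0.30), miR-25-3p (-0.29), miR-301a-3p (-0.29) and miR-153-3p (-0.29). miR-141-3p is a member of the miR-200 family, which keeps epithelial cells epithelial, and miR-335 is made from the imprinted Mest gene. miR-153-3p is abundant in brain, and its 2 probes gave log2FC of -0.12 and -0.46. miR-384-5p carries the seed of the miR-30 family, whose 5 members had log2FC of -0.17 to 0.043.

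miR-3473 had the smallest p of the lower miRs. Its level was 7.20, 7.17 and 7.35 on 24h_Cyt and 6.80, 6.96 and 7.06 on 24h_Giv_Cyt, a log2FC of -0.30 (SE 0.090, limma adjusted p = 0.391). Its 2 probes gave -0.17 and -0.43. Without scaling between arrays it was the single miR called, at -0.50 (limma adjusted p = 0.000251). At 24 h without cytokines Givinostat went with a log2FC of -0.18, and at 6 h with cytokines with one of 0.20.

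Further seed groups had only negative members. The 4 detected miRs of the miR-15/16 family, which repress BCL2 and cyclins, had log2FC of -0.12 to -0.23 (miR-15b-5p -0.23, the only one without overlap), but 1 of the 4 was positive with the processed signal scaled over detected miRs and 3 with array brightness as a covariate. The pair miR-106b-5p and miR-93-5p, made with miR-25 from an intron of Mcm7, had -0.23 and -0.030. Of 15 seeds shared by 2 or more detected miRs, 7 had only negative members, 1 only positive and 7 both. Of 30 genomic clusters of detected miRs no more than 10000 bases apart, 11 were all negative, 6 all positive and 13 mixed. Some of these clusters are the 2 arms of 1 hairpin, such as miR-340-5p with miR-340-3p. A miR made at more than 1 locus, such as miR-29b-3p, was counted at each, so the clusters are not separate measurements. These directions hold for the quantile-normalized levels. Without scaling between arrays the median of the detected miRs shifted by -0.16 with 49 positive and 119 negative, and with the processed signal scaled to its 75th percentile it shifted by 0.17 over detected miRs, with 119 positive and 49 negative, or by -0.12 over all miRs, with 68 positive and 100 negative.

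The 12 higher miRs without overlap were led by 1 array. 24h_Giv_Cyt replicate 1 was the highest array for 10 of the 12, and it was the lowest for 27 of the 30 lower miRs. Without that array the median log2FC of the 12 went from 0.17 to 0.10, and that of the 30 from -0.23 to -0.18. miR-146a-5p was one of the 2 exceptions on the higher side. For miR-207 the levels were 7.76, 8.07 and 7.98 on 24h_Cyt and 8.55, 8.10 and 8.19 on 24h_Giv_Cyt, a log2FC of 0.35 (SE 0.33). For miR-3102 they were 6.59, 6.68 and 6.71 on 24h_Cyt and 7.21, 6.74 and 6.90 on 24h_Giv_Cyt, a log2FC of 0.29 (SE 0.19). For miR-207 replicates 2 and 3 of 24h_Giv_Cyt were close to 24h_Cyt, and for miR-3102 replicate 2 was. In both cases replicate 1 stood apart from replicates 2 and 3. miR-34b-3p (0.25), a p53 target, showed the same order of arrays.

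**Figure D3:**
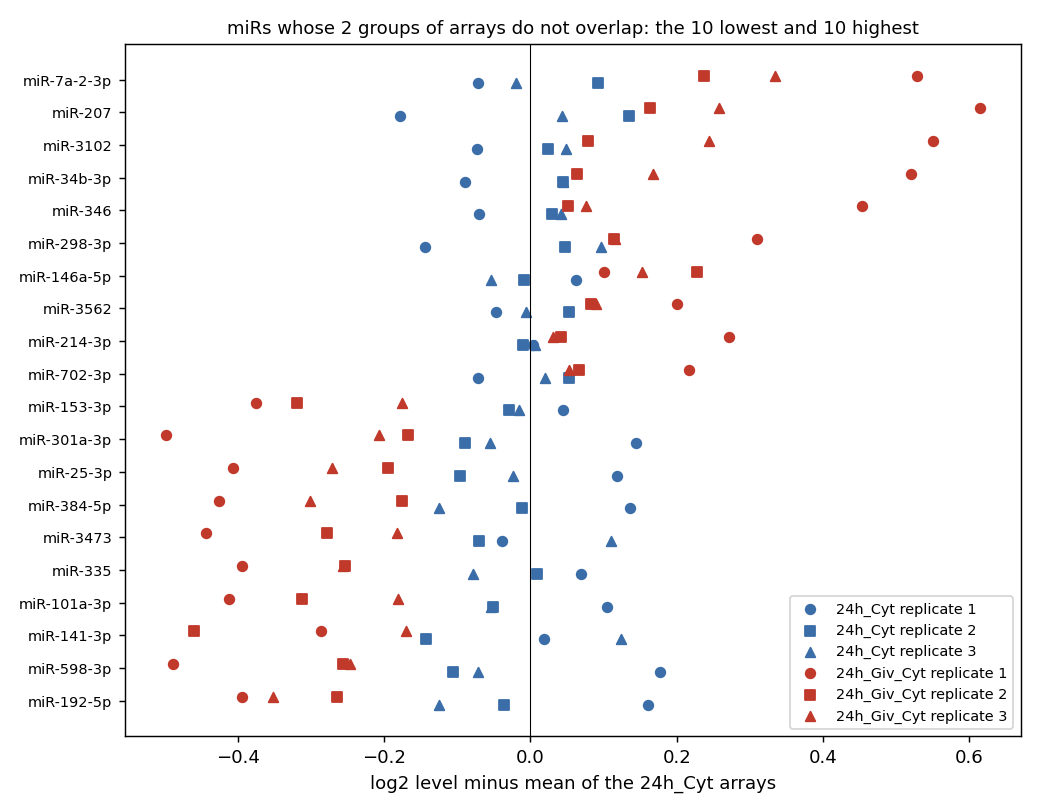
Level of each of the 6 arrays minus the mean of the 24h_Cyt arrays (x axis, log2) for the 10 highest and 10 lowest detected miRs whose groups do not overlap (y axis). Blue marks 24h_Cyt and red 24h_Giv_Cyt, and the symbol gives the replicate. The red circle, 24h_Giv_Cyt replicate 1, is the outermost point for most miRs, while for miR-146a-5p it is the red point nearest to 24h_Cyt.

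Base composition, which the choice of miRs did not use, is given here as a description without a test. The mature sequences of the 12 higher miRs had a median of 55.5% G and C, and 27 of the 30 lower miRs with a sequence had a median of 40.9%, against 47.6% over the 151 detected miRs with one. In the third of the detected miRs with the least G and C (25 to 42.9%, 50 miRs) the median log2FC was -0.051, with 20 positive and 30 negative. In the third with the most (52.2 to 72.7%, 51 miRs) it was 0.067, with 37 positive and 14 negative. Across the 151 miRs log2FC correlated with G and C content at r = 0.25, a description over miRs that share arrays and hybridization. Without 24h_Giv_Cyt replicate 1 the medians were 0.0021 and 0.021 and r was 0.23. In the other comparisons of Givinostat r was -0.26 for 24h_Giv_Ctrl against 24h_Ctrl and 0.25 for 6h_Giv_Cyt against 6h_Cyt. The printed sequences of the higher and lower miRs overlap in composition. miR-340-5p, among the lower, has 27.3% and miR-3102, among the higher, 66.7%, but the lower miR-3473 has 54.5%, the same as miR-7a-2-3p and miR-485-3p, and miR-146a-5p has 40.9%. The part of hybridization in this was not tested.

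**Figure D4:**
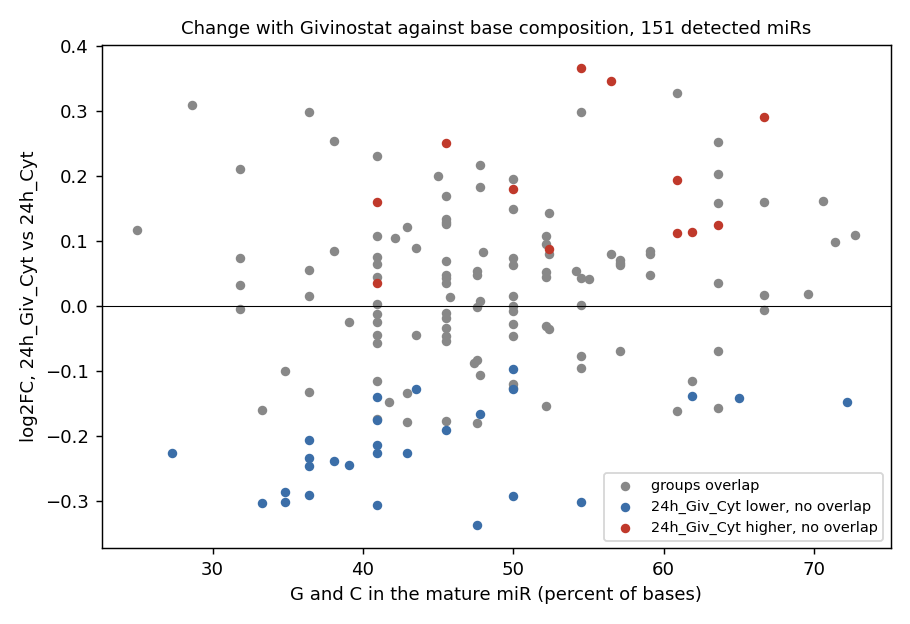
log2FC of 24h_Giv_Cyt against 24h_Cyt (y axis) by the percent of G and C in the mature miR (x axis) for 151 detected miRs. Blue and red points are miRs without overlap between the groups, lower and higher with Givinostat. Red points lie between 40.9 and 66.7%, with miR-146a-5p at the low end, and blue points between 27.3 and 72.2%.

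Givinostat was also given for 24 h without cytokines. No miR was called in 24h_Giv_Ctrl against 24h_Ctrl by limma on array means (32 at an unadjusted p below 0.05, 4.22%, and 3 by the pooled test, 0.396%), and that comparison shares no array with 24h_Giv_Cyt against 24h_Cyt. Of the 30 lower miRs 23 had a positive log2FC without cytokines, with a median of 0.085, and of all 168 detected miRs 72 were positive. For miR-96-5p the log2FC was 0.37 without and -0.24 with cytokines, and for miR-29b-3p it was 0.34 and -0.29. For miR-7a-2-3p it was 0.10 and 0.37. In the direct test of the difference no miR passed (39 at an unadjusted p below 0.05, 5.15%, and 22 by the pooled test, 2.9%), and the lowest limma adjusted p was 0.760, that of miR-146a-5p, whose difference was 0.16 (SE 0.046). Over the 168 miRs the 2 sets of log2FC correlated at r = -0.42, and at 0.059 with slide as a fixed block. Slide 4 held 2 of the 3 24h_Giv_Cyt arrays and all 3 arrays of 24h_Ctrl. It also held 24h_Giv_Ctrl replicate 1, while replicates 2 and 3 of that group lay on slide 3. The level of miR-96-5p was 8.23, 7.96 and 8.39 on 24h_Ctrl and 8.27, 8.70 and 8.72 on 24h_Giv_Ctrl. That of miR-29b-3p was 9.39, 9.32 and 9.70 on 24h_Ctrl and 9.49, 9.93 and 9.99 on 24h_Giv_Ctrl. For both, 24h_Giv_Ctrl replicate 1 lay within the range of 24h_Ctrl and replicates 2 and 3 above it. The part of slide was not tested further.

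With cytokines at 6 h the differences of group means mostly ran the same way as at 24 h, but 1 array of 6h_Giv_Cyt stood apart. That array, replicate 3, correlated with replicates 1 and 2 at r of 0.970 and 0.978, while those correlated at 0.997. For example, miR-29c-3p was 8.66, 8.86 and 8.05 on 6h_Giv_Cyt and 8.94, 8.47 and 8.80 on 6h_Cyt. For miR-207 the levels were 7.73, 8.05 and 8.87 on 6h_Giv_Cyt and 7.79, 8.28 and 7.76 on 6h_Cyt. The part of replicate 3 in the values below was not tested. No miR was called in 6h_Giv_Cyt against 6h_Cyt by limma on array means (24 at an unadjusted p below 0.05, 3.17%, and 21 by the pooled test, 2.77%). Of the 30 lower miRs 26 were negative there, with a median of -0.13, and of the 12 higher miRs 11 were positive, with a median of 0.12, where 85 of all 168 were negative. The correlation over the 168 miRs was 0.77, and 0.73 with slide as a fixed block. These 2 comparisons share no array, but 24h_Giv_Cyt and 6h_Giv_Cyt both held arrays of slide 3, and 24h_Cyt and 6h_Cyt both held arrays of slide 2.

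miR-146a-5p was the single miR called in the test of the difference between 24 h and 6 h, though others also had opposite signs at the 2 times, as 4 of the 30 lower miRs (miR-3473, miR-188-5p, miR-3584-5p and miR-211-3p) were positive at 6 h. Its level was 5.65, 5.62 and 5.59 on 6h_Cyt and 5.51, 5.48 and 5.47 on 6h_Giv_Cyt, and it was detected on none of these 6 arrays. The 6 h values are therefore measured signal without a known level behind it, and no effect of time on the miR is read from them. As a difference in that signal, the 2 log2FC lay 0.30 apart (SE 0.046, limma adjusted p 0.00343), 1 call among 758 miRs (0.132%), where 28 (3.69%) had an unadjusted p below 0.05. The pooled test called 5 miRs for this difference (0.66%), namely miR-146a-5p, miR-652-5p, miR-188-5p, miR-3584-5p and miR-7a-2-3p. For miR-7a-2-3p the log2FC was 0.0027 at 6 h and 0.37 at 24 h, and for miR-652-5p it was 0.043 and 0.33.

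**Figure D5:**
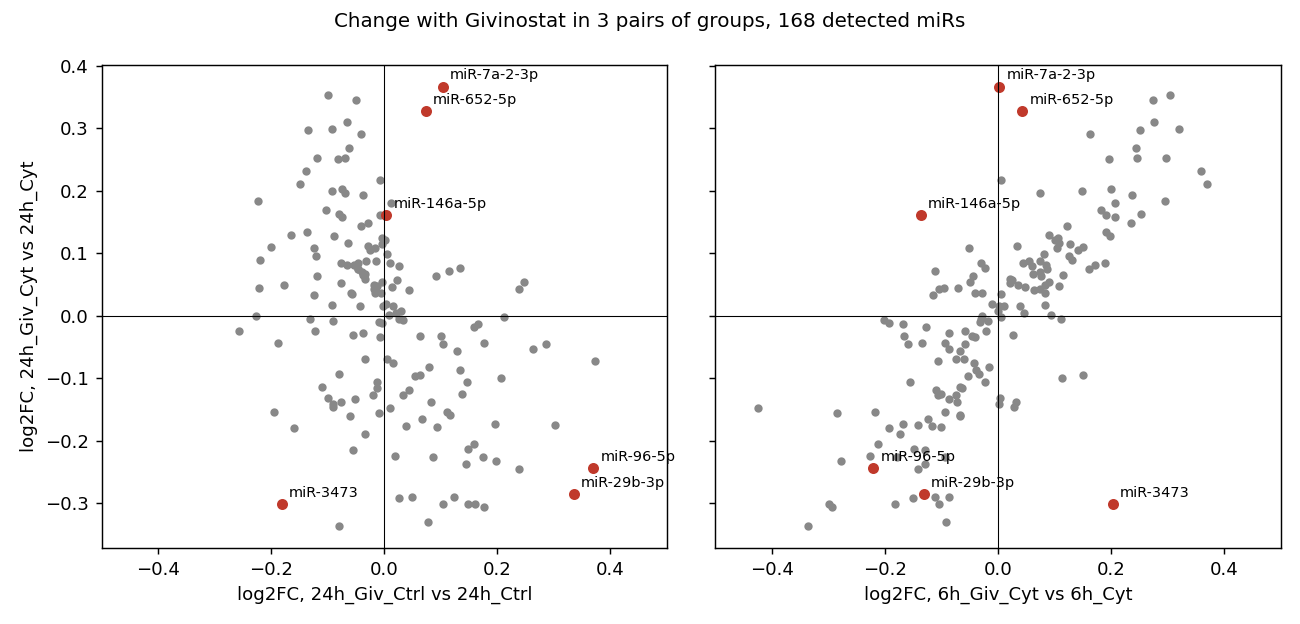
log2FC of 24h_Giv_Cyt against 24h_Cyt (y axis) by log2FC of 24h_Giv_Ctrl against 24h_Ctrl (left x axis) and of 6h_Giv_Cyt against 6h_Cyt (right x axis) for the 168 detected miRs, with 6 miRs named. On the left the points run downward (r = -0.42), and on the right they run upward (r = 0.77), with miR-3473, miR-652-5p, miR-146a-5p and miR-7a-2-3p away from that run.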

How the data were processed

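Rat miR arrays were hybridized with Cy3-labelled RNA, 1 colour per array. The authors deposited 1 scanner file per array (Agilent Feature Extraction 10.7.3.1 per the file headers) with spot intensities on a linear scale, and a table of log2 values. The deposited log2 table equalled, within 4.94e-09, the median over a miR's 16 spots after the steps below, with column medians of 5.52 to 5.54. It served as an alternative.

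From the scanner files the median foreground intensities of 12128 miR spots were quantile-normalized over the 24 arrays without background correction, taken to log2 and averaged per miR and array. Levels were fitted with limma 3.58.1 in R 4.3.3 on all 24 arrays as 8 group means, with 16 residual degrees of freedom and Benjamini-Hochberg adjustment over 758 miRs. A call needed an adjusted p below 0.05 and an absolute log2FC above 0.1375. The study's methods instead fit the spots with a pooled correlation, which was run as an alternative because the spots of an array share 1 RNA. Figures were drawn with matplotlib, and the number of arrays limits the precision.

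The 6 arrays were chosen by title. miRs were named by these rules: called by either test or in either difference between effects, in the study's groups at 24 h, among the 10 highest or lowest detected miRs without overlap, reference or bright miRs, and up to 3 per list. The members, rules and lists (26, of families, functions and cell type markers) were chosen with earlier results of these data known. Base composition is that of the RefSeq mature miR, and the array's own probe positions (rn4) were not used.

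On simulated arrays for this comparison (758 miRs, 200 changed), 3 of 10 detected miRs changed by a log2FC of 0.2 were called. At 0.4 the count was 9 of 11 and at 0.8 it was 11 of 12, with 2 calls among 558 unchanged miRs. The simulated noise was independent between miRs and between arrays, without slide or brightness. These counts therefore do not cover deviations that the miRs of an array or slide share. Alternatives covered the test, summary, signal, background, scaling, filter, slide, replicate block, brightness, outlier spots and each array left out, as given in the closing section.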

Additional observations from a re-analysis of the deposited data

Results flagged for a closer look

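miR-146a-5p was the single miR called for a difference between times, but it was detected on none of the 6 h arrays, so the value is a difference in measured signal and no effect of time is read from it. That signal difference was 0.30 on the log2 scale, 24 h minus 6 h with cytokines, by a limma contrast over all 24 arrays (adjusted p = 0.00343). At 6 h all 3 arrays with Givinostat were below those without, and at 24 h all 3 were above. Leaving out each of the 24 arrays in turn gave 0.26 to 0.32, with limma adjusted p from 0.000898 to 0.0178. The difference was 0.31 with slide as a fixed block (adjusted p = 0.0979) and 0.30 without scaling between arrays (adjusted p = 0.507), where it did not pass. The part of background in the 6 h levels, which lay below detection, was not tested.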

How the results depend on the processing

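Under 17 alternatives other than leaving out an array, 28 of 44 named miRs kept their sign. The pooled test, detected miRs alone, the groups compared alone and the replicate block leave log2FC as it was, so they could not turn a sign. The deposited table repeats the median over spots. The count of miRs called in 24h_Giv_Cyt against 24h_Cyt, 1 on array means, was 24 with the pooled test, 3 with the processed signal scaled over all miRs (miR-146a-5p, miR-370-3p and miR-762), and 0 with the median over spots, normexp, detected miRs alone, the deposited table, the groups compared alone, slide as a fixed or a random block, slide 1 left out, array brightness as a covariate or outlier spots left out. It was 0 to 2 without 1 array. With normexp miR-146a-5p missed the fold threshold, at a log2FC of 0.10, while its limma adjusted p was 0.00746. Replicate numbers gave no sign of pairing, as deviations of same-numbered 24h_Cyt and 24h_Giv_Cyt arrays from their group means correlated at -0.729, -0.635 and 0.262. Those of 24h_Cyt replicate 1 and 24h_Giv_Cyt replicate 2 correlated at 0.754. Those of 24h_Cyt replicate 2 and 24h_Giv_Cyt replicate 1 correlated at 0.721. Deviations from a mean of 3 arrays are tied together, so these values are not independent, and what the arrays share was not tested. With replicate number as a block the count was also 0, and that block moved neither of the other counts. The count for the difference with and without cytokines, 0, was 22 with the pooled test, 2 with the processed signal scaled over detected miRs and 1 without scaling between arrays, and stayed 0 without any 1 array. The count for the difference between 24 h and 6 h, 1, was 5 with the pooled test, 2 with the processed signal scaled over all miRs, 0 with detected miRs alone, the groups compared alone, slide as a fixed block or outlier spots left out, and 1 to 2 without 1 array. The setting with quantile normalization after log2 was chosen after seeing the data and changed no count.

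Signs that turned were these. With the median over spots and with the deposited table miR-182 had -0.0071. With the processed signal over detected miRs miR-7a-5p had 0.023. With that signal over all miRs the values were -0.011 for miR-466b-2-3p, -0.033 for miR-182, -0.24 for miR-375-3p, -0.26 for let-7c-5p, -0.28 for miR-103-3p and -0.064 for miR-129-5p. Without scaling between arrays they were -0.22 for miR-466b-2-3p, -0.16 for miR-182, -0.0088 for miR-207, -0.029 for miR-764-5p, -0.064 for miR-485-3p, -0.0016 for miR-328a-3p, -0.43 for miR-375-3p, -0.46 for let-7c-5p, -0.47 for miR-103-3p and -0.21 for miR-129-5p. With slide as a fixed block miR-652-5p had -0.28, miR-375-3p -0.10 and miR-103-3p -0.039, and without slide 1 the last 2 had -0.050 and -0.047. With brightness as a covariate miR-146b-5p had 0.10, miR-466b-2-3p -0.17, miR-29c-3p 0.028, miR-21-5p 0.0085, miR-207 -0.047, miR-764-5p -0.093, miR-485-3p -0.12, miR-375-3p -0.067 and miR-206-3p -0.066. Without outlier spots miR-7a-5p had 0.074. Leaving out each array moved miR-103-3p from -0.051 to 0.11, miR-129-5p from -0.055 to 0.19, miR-375-3p from -0.039 to 0.16 and miR-7a-5p from -0.19 to 0.027. The cause was not tested, beyond the shift of all detected miRs that each scaling brings. Dim miRs are limited by signal over background, since 536 of 758 were detected on none of the 6 arrays.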

Other observations

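Some lists of miRs with known roles are not described above. Of 12 miRs linked to β-cell death and dysfunction, 6 were detected, namely miR-21-5p, the miR-29 family, miR-141-3p and miR-200c-3p, with log2FC from -0.31 to -0.13 and no call, and 1 of the 6 turned positive with the processed signal scaled over detected miRs. With array brightness as a covariate 2 of these 6 were positive, and the list's median went from -0.23 to -0.045. The let-7 family, which restrains growth, had 5 of 9 members positive and 4 negative, with log2FC from -0.13 to 0.11, and no member without overlap. Its signs moved with the scaling, from 0 of 9 positive without scaling between arrays to 9 of 9 with array brightness as a covariate. Of 7 miRs that support insulin production 6 were detected, 3 positive and 3 negative, with log2FC of -0.21 to 0.084, and none was positive without scaling between arrays. Of 11 islet-enriched miRs 7 were detected, with a median of -0.012, and miR-7a-2-3p was the highest of them.

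Among 12 neuronal miRs 6 were detected, 1 positive and 5 negative, with a median of -0.14 and miR-153-3p as the lowest, though 3 were positive with the processed signal scaled over detected miRs. miR-129-5p, the positive one at 0.063, had a mean of 8.65 on 24h_Ctrl, 7.76 on 24h_Cyt and 7.82 on 24h_Giv_Cyt. Of 10 miRs reported to answer deacetylase inhibitors in other cells 4 were detected, with log2FC of -0.18 to 0.063 and no call, and all 4 were positive with array brightness as a covariate. The reference miRs let-7c-5p and miR-103-3p had log2FC of 0.11 and 0.0079, and the 2 probes of miR-103-3p gave -0.075 and 0.091. miR-423-3p and miR-423-5p, of the same list, were not among the detected miRs. In 24h_Cyt against 24h_Ctrl let-7c-5p was called lower, at -0.38 (limma adjusted p = 0.0449), though not by the pooled test. The 4 miR-181 miRs were not detected.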
